A study of Mus musculus with 12 samples.

Results

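The STEAP metalloreductases and the core genes of iron uptake, storage, export and control were followed in 4T1 cells, a mouse mammary carcinoma line, after exposure to Gr1+ myeloid cells. The 10 genes were taken by symbol (Steap1, Steap2, Steap3, Steap4, Tfrc, Slc11a2, Slc40a1, Fth1, Ftl1 and Ireb2) from 35521 genes with at least 1 transcript in the count tables, and all 10 passed the filter on low counts that left 12555 genes for testing. There were 3 groups of 4 RNA-seq libraries, all from 4T1 cells, for which the labels give no genetic alteration. Tu-primed cells had spent 48 h below Gr1+ cells isolated from 4T1 tumors of BALB/c mice at day 21, Spl-primed cells had spent the same time below Gr1+ cells from the spleens of tumor-bearing mice, and the parental cells were untreated. The membrane between the cells had pores of 0.4 µm, so that the cells shared medium without contact, and the sorted Gr1+ cells were a mixture of granulocytic and monocytic cells. The labels do not say whether the 4 replicates of a group were separate cultures or came from separate donor mice, and the p-values therefore measure only the spread between these libraries, which may be technical.

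Iron circulates as ferric iron bound to transferrin and enters cells when transferrin receptor 1, the product of Tfrc, is internalised. In the endosome a STEAP reductase reduces the ferric iron, and the divalent metal transporter encoded by Slc11a2 carries the ferrous iron into the cytosol. Ferritin, a shell of heavy chains (Fth1) and light chains (Ftl1), stores what is not used, and ferroportin (Slc40a1) is the exporter of cellular iron. Iron regulatory proteins, among them the product of Ireb2, bind stem-loops called iron-responsive elements when iron is scarce: binding in a 5′ untranslated region blocks translation, whereas binding in a 3′ untranslated region protects the mRNA from decay. Steap3 is the reductase of the erythroid endosome, Steap4 is known as an inflammation- and nutrient-responsive reductase, Steap2 also reduces iron and copper, and Steap1 lacks the NADPH-binding domain of its relatives.

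The iron-responsive elements are shown because they divide the members into classes. The members were chosen as iron genes, so the share of them with a site is only a description. In the transcripts of the reference annotation (GENCODE M21, GRCm38) a search for an unpaired C, an upper stem of 5 base pairs and the loop letters CAGTG followed by any base but G found sites in 4 of the 10 members and in 1.01% of 21901 coding genes. With 1 unpaired base allowed in the stem, Slc11a2 was added. Sites of this second kind were found in 1.94% of coding genes, counted apart from the 1.01% with a fully paired site. The capitals mark the loop.
Fth1, 5′ untranslated region, chr19:9982733-9982759, plus strand: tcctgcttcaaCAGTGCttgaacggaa
Ftl1, 5′ untranslated region, chr7:45459780-45459806, minus strand: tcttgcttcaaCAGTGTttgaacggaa
Slc40a1, 5′ untranslated region, chr1:45925466-45925492, minus strand: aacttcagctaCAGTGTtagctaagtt
Tfrc, 3′ untranslated region, chr16:32631220-32631246, plus strand: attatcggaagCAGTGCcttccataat
Tfrc, 3′ untranslated region, chr16:32631599-32631625, plus strand: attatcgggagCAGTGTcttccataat
Tfrc, 3′ untranslated region, chr16:32631664-32631690, plus strand: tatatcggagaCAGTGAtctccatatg
Tfrc, 3′ untranslated region, chr16:32631711-32631737, plus strand: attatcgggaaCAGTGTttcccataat
Slc11a2, 3′ untranslated region, 1 unpaired base, chr15:100395153-100395180, minus strand: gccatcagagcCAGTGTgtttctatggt
The sites of both ferritin chains lay in the 5′ untranslated region, as did that of ferroportin, and the 4 sites of Tfrc lay in its 3′ untranslated region. No transcript of Steap1, Steap2, Steap3, Steap4 or Ireb2 held these letters in this arrangement.

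The libraries held between 24566183 and 31637755 estimated reads, with overlapping ranges in the 3 groups. Reads on mitochondrial genes made up 4.26 to 6.75% of the parental libraries, 2.53 to 3.17% of the Spl-primed and 2.10 to 2.54% of the Tu-primed libraries, and the part of this difference in the member genes' levels was not tested. TPM, the abundance scaled for transcript length and library size, moved the median gene by 0.47 on the log2 scale between Tu-primed and parental libraries and by 0.40 between Spl-primed and parental libraries, and the short mitochondrial transcript mt-Atp8 alone took 10.3 to 15.0% of the parental TPM against 4.55 to 7.08% in the primed libraries. Levels were therefore compared between groups as CPM, read counts scaled to library size with TMM factors, where the median gene differed by no more than 0.02 in the 3 comparisons, and between genes within a group as TPM. TMM factors are set on the assumption that most genes do not change. A median near 0 follows from this scaling and is no evidence that the scaling is right. Some myeloid marker genes were at or near 0 in these bulk lysates, and others were detected in all 3 groups. Of 12 granulocyte markers 8 never exceeded 3 counts, and the summed CPM of the list was 3.30 to 7.73 in Tu-primed, 3.38 to 5.34 in Spl-primed and 3.84 to 4.79 in parental libraries, with Cxcr2 the most abundant. The sum over 8 macrophage markers, led by Cd14, was 22.9 to 24.2 in Tu-primed, 18.1 to 20.8 in Spl-primed and 17.4 to 21.1 in parental libraries, and 3 of the 8 markers stayed at 0. For this sum the Tu-primed libraries lay above all others. Cd14 had means of 16.1 CPM in Tu-primed, 12.9 in Spl-primed and 14.1 in parental libraries, and Cd68 and Mrc1 were also detected. The source of these reads was not tested. The sum over 8 erythroid markers never exceeded 0.480 CPM. The 6 epithelial and carcinoma markers, led by Krt8, were all detected, as the label of a mammary carcinoma line implies, and their summed CPM was 1837 to 2247 in Tu-primed, 2332 to 2514 in Spl-primed and 2610 to 3894 in parental libraries, so that the groups did not overlap. Krt14 among them was low, with means of 0.343, 0.323 and 0.391 CPM in these groups.

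Priming by tumor-derived compared with spleen-derived Gr1+ cells was the comparison named in the design of the series. Between these groups, 3 of the 10 members rose and 0 fell at an adjusted p under 0.05 in edgeR's quasi-likelihood test, and all 3 were STEAP genes. Of all 12555 genes tested, 4.66% rose, 2.97% fell and 7.63% changed in either direction. The members were chosen with earlier results of these data known, so each count of members set beside all genes is only a description. None of the 6 iron uptake, storage, export and control genes passed in edgeR, DESeq2 or limma-voom, and 1 of them (Ftl1) had an unadjusted p under 0.05. The median log2 difference was 0.49 over the 4 STEAP genes and 0.09 over the other 6, beside −0.01 over all genes tested. In bulk RNA, fewer cells with a high level and less RNA in each cell cannot be told apart, which touches every difference given here.

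Steap4, which reduces ferric iron and copper at the cell surface and in endosomes, showed the largest change of the members. Its CPM was 51.0, 51.5, 54.8 and 36.5 in the 4 Tu-primed libraries, 9.79, 9.33, 7.66 and 12.5 in the Spl-primed and 5.22, 6.84, 3.98 and 4.68 in the parental libraries. All Tu-primed libraries lay above all Spl-primed ones, which in turn lay above all parental ones. The means were 48.5 ± 8.12, 9.81 ± 1.99 and 5.18 ± 1.22 CPM (SD, n = 4). Steap4 rose by 2.30 on the log2 scale (SE 0.16, adjusted p = 3.64e-06) in Tu-primed against Spl-primed cells, which ranked 4 by p among all genes tested. Steap4 is on the gene lists that the study drew from these same libraries, so its direction here is not independent evidence. Against the parental cells it rose by 3.22 on the log2 scale (SE 0.18, adjusted p = 3.97e-08) after tumor-derived and by 0.92 on the log2 scale (SE 0.18, adjusted p = 0.00110) after spleen-derived priming, in comparisons that share the 4 parental libraries.

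Steap2, the most abundant of the 4 reductases in every group, was measured at 414, 408, 449.8 and 352 CPM in Tu-primed, 297, 281, 234 and 294 in Spl-primed and 261, 264, 260.4 and 263 in parental libraries. The Tu-primed libraries stood above all others, and the Spl-primed range contained the parental range. Steap2 rose by 0.55 on the log2 scale (SE 0.08, adjusted p = 0.000601) against Spl-primed and by 0.63 on the log2 scale (SE 0.08, adjusted p = 1.95e-05) against parental cells. Between Spl-primed and parental cells the difference was 0.08 on the log2 scale (SE 0.08, adjusted p = 0.450) and did not pass.

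Steap1, which pairs with its relatives and has no NADPH site of its own, was at 59.9, 58.2, 61.6 and 52.2 CPM in Tu-primed, 43.8, 42.6, 47.1 and 39.3 in Spl-primed and 47.7, 44.6, 51.7 and 55.1 in parental libraries. The Tu-primed libraries were all above the Spl-primed ones, while the parental libraries lay between and overlapped both. Steap1 rose by 0.42 on the log2 scale (SE 0.08, adjusted p = 0.00309) against Spl-primed cells. It also rose by 0.22 on the log2 scale (SE 0.08, adjusted p = 0.0219) against parental cells and fell by 0.20 on the log2 scale (SE 0.08, adjusted p = 0.0400) in Spl-primed against parental cells. Neither of these calls against the parental cells was stable: across the alternatives the adjusted p ran from 0.00875 to 0.0705 for Tu-primed and from 0.0121 to 0.126 for Spl-primed cells. The first was lost without Tu-primed replicate 1 (0.0581) or 3 (0.0688) and without parental replicate 1 (0.0617) or 2 (0.0675). The second was lost without Tu-primed replicate 1 (0.0507) or 2 (0.0519), Spl-primed replicate 1 (0.0628), 2 (0.0826) or 4 (0.122), or parental replicate 3 (0.101) or 4 (0.126).

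Steap3, the reductase of the transferrin cycle, did not rise between the primed groups as its 3 relatives did. Against parental cells its fall set it apart in Tu-primed cells, while in Spl-primed cells Steap1 also fell, by the unstable call given above. Its CPM was 7.35, 6.45, 8.0 and 7.25 in Tu-primed, 6.59, 6.32, 8.17 and 8.07 in Spl-primed and 12.5, 15.0, 13.8 and 14.3 in parental libraries. Every primed library was below every parental library, and the primed groups overlapped. Steap3 fell by 0.93 (SE 0.10, adjusted p = 5.64e-06) in Tu-primed and by 0.93 (SE 0.10, adjusted p = 1.26e-05) in Spl-primed cells on the log2 scale. Between the primed groups the difference was −0.0028 (SE 0.10, adjusted p = 0.993).

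**Figure D1:**
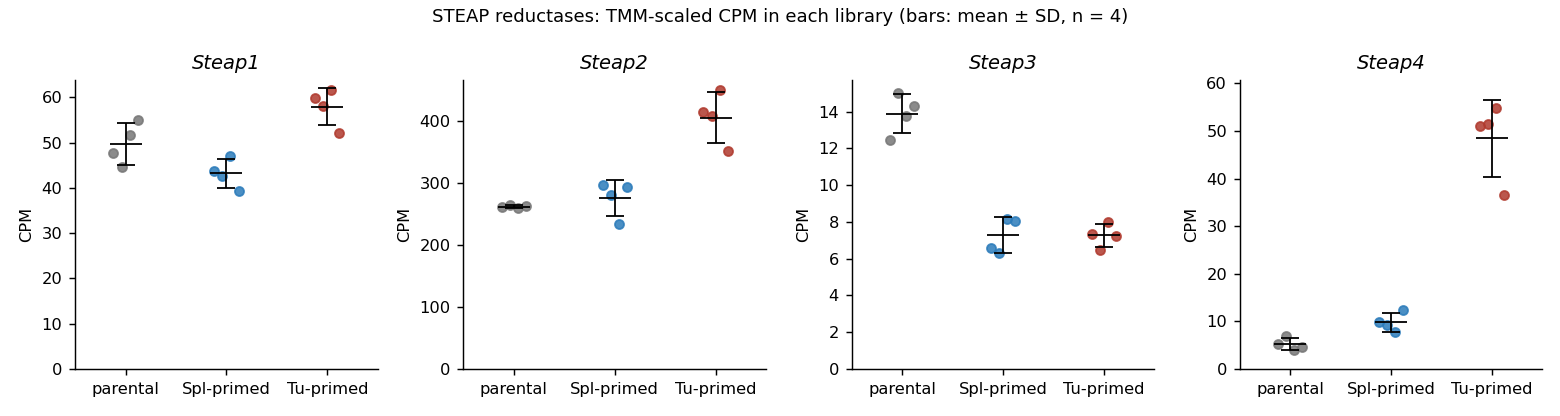
TMM-scaled CPM (y axis) of the 4 STEAP genes in each library (points) of the parental, Spl-primed and Tu-primed groups (x axis), with mean ± SD of 4 libraries. The Tu-primed libraries are the highest for Steap2 and Steap4, and the parental libraries are the highest for Steap3.

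Steap1, Steap2 and Steap4 lie on 1 stretch of chromosome 5 and Steap3 on chromosome 1 (GRCm38). Steap2 (chr5:5664829-5694578) and Steap1 (chr5:5736317-5749326), both on the minus strand, are separated by 41738 bases with no coding gene between them. Steap4 (chr5:7960457-7982213, plus strand) follows after 2211130 bases, in which the only 2 coding genes are Zfp804b, with at most 10 counts in a library, and Tex47, with 0 counts.

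The sequence before the Steap4 start is shown because this gene changed most. It was read from the RefSeq promoter table (GRCm38.p6), in which 8 of the 10 members were found, Slc11a2 and Slc40a1 having no entry. The motifs named here were searched on both strands over 250 bases before to 50 bases after each start site. The capitals mark, in this order, a match to the NF-kappaB-type motif (GGG and TTTCC with 2 bases between) on the reverse strand, to the STAT-type motif TTCNNNGAA, which reads the same on both strands, and to the CEBP-type motif TTGCNNAA.
Steap4 upstream region, chr5:7960222-7960456, plus strand: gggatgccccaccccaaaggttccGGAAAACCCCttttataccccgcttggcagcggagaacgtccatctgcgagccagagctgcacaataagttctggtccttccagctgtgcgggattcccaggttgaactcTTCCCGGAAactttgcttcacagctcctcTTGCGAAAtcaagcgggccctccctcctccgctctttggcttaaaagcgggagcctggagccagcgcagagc
The STAT-type match began 116 bases before the RefSeq start site of Steap4, which lies 15 bases downstream of the GENCODE gene start given above, and the same motif was found 135 bases before 1 of the 3 RefSeq start sites of Steap2.
Steap4, chr5:7960346-7960374, plus strand: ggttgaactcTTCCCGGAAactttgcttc
Steap2, chr5:5694443-5694471, minus strand: taaaatgcggTTCGTGGAAgggcatttct
Of all 32851 promoters in the table, 8.30% held the STAT-type, 10.8% the CEBP-type and 1.63% the NF-kappaB-type motif. These shares are per promoter, while Steap2, Steap3, Tfrc and Fth1 were each searched in several promoters. A match in such a gene is therefore more likely than these shares give. The promoters of Steap1, Steap3, Tfrc, Fth1, Ftl1 and Ireb2 held no STAT-type match in this window, which says only that these letters are not there. The other motifs were the interferon-stimulated GAAA repeated after 2 bases (3.44% of promoters), the hypoxia-response ACGTG (19.6%) and the antioxidant-response TGACNNNGC (12.4%). Steap2 held a match to ACGTG and to TGACNNNGC before its other start sites, and Tfrc held ACGTG. The CEBP-type motif was also found in Fth1 and Steap3. Whether any factor bound these sites was not measured.

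Against the parental cells most members changed in both primed groups, as did much of the transcriptome. After tumor-derived priming 5 of the 10 rose and 4 fell, when 31.2% of all genes tested rose, 28.0% fell and 59.2% changed in either direction. After spleen-derived priming 3 rose and 5 fell, beside 25.7% and 22.5% of all genes, and 48.2% in either direction. Slc40a1, which the filter on low counts admitted through the primed libraries in which it was higher, is among the genes that rose in both; of the 9 others 4 rose and 4 fell after tumor-derived, and 2 rose and 5 fell after spleen-derived priming. Both comparisons use the same 4 parental libraries. Of the 6 epithelial markers 4 fell in Tu-primed cells, and 3 fell and 1 (Epcam) rose in Spl-primed cells, with median log2 differences of −0.46 and −0.28, and their part in the members' differences was not tested. The median log2 difference of the 10 members was 0.05 and −0.12, beside 0.02 over all genes in each.

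**Figure D2:**
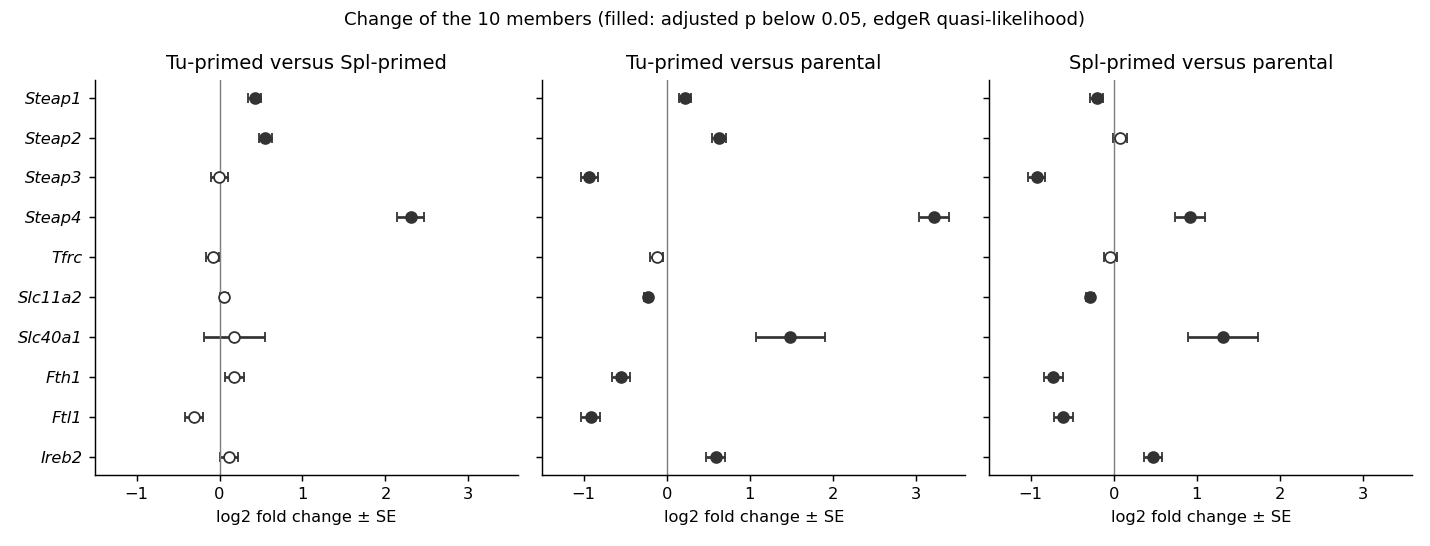
Log2 fold change (x axis, with SE) of the 10 members (y axis) in the 3 comparisons, from edgeR over 4 libraries a group. Filled points passed an adjusted p of 0.05, which 3, 9 and 8 members did from left to right.

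Among the uptake genes, Tfrc, which brings in transferrin-bound iron, did not pass the test in any comparison. Its CPM was 603, 576, 582 and 593 in Tu-primed, 705, 611, 568 and 609 in Spl-primed and 694, 675, 645 and 546 in parental libraries, with overlapping ranges in all 3 groups. The differences were −0.08 (adjusted p = 0.575) between the primed groups, −0.12 (adjusted p = 0.191) for Tu-primed and −0.04 (adjusted p = 0.700) for Spl-primed against parental cells on the log2 scale. None passed, although the Tu-primed difference was −0.19 and passed (adjusted p = 0.0258) without parental replicate 4.

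Slc11a2, the transporter that moves ferrous iron out of the endosome, was at 56.2, 51.6, 51.7 and 54.4 CPM in Tu-primed, 52.8, 52.2, 49.9 and 50.7 in Spl-primed and 59.9, 63.4, 64.9 and 62.8 in parental libraries. The parental libraries were all higher than the primed ones. It fell by 0.23 (SE 0.05, adjusted p = 0.000833) in Tu-primed and by 0.29 (SE 0.05, adjusted p = 0.000270) in Spl-primed cells on the log2 scale, and differed by 0.06 (adjusted p = 0.518) between the primed groups. Both calls were lost when each library's transcript lengths entered the fit, where the differences were −0.07 (adjusted p = 0.706) and −0.20 (adjusted p = 0.263), and in the authors' normalised table, where they were −0.10 (adjusted p = 0.585) and −0.23 (adjusted p = 0.207). The lengths in the fit were weighted by TPM. The 389-base transcript Slc11a2-207, with 3.92% of Slc11a2 reads, held 10.3 to 28.8 TPM, where the gene had 31.2 to 57.5. The part of such short transcripts in the lost calls was not tested.

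The ferritin chains were the most abundant members and both were lower after priming. Fth1, the heavy chain with the ferroxidase site, was at 2403, 2424, 2347 and 1965 CPM in Tu-primed, 2092, 1851, 2320.2 and 1819 in Spl-primed and 3082, 2761, 3550.2 and 3993 in parental libraries. The lowest parental library was above every primed one. Fth1 fell by 0.55 (SE 0.11, adjusted p = 0.000859) in Tu-primed and by 0.73 (SE 0.11, adjusted p = 0.000183) in Spl-primed cells on the log2 scale. Between the primed groups the difference was 0.18 (adjusted p = 0.382).

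Ftl1, the light chain, was at 1496, 1506, 1372 and 1661 CPM in Tu-primed, 1783, 1828, 2202 and 1666 in Spl-primed and 2562, 2405, 3016 and 3397 in parental libraries, again with all parental libraries on top. Ftl1 fell by 0.92 (SE 0.11, adjusted p = 1.24e-05) in Tu-primed and by 0.61 (SE 0.11, adjusted p = 0.000561) in Spl-primed cells on the log2 scale. The Tu-primed libraries were also all below the Spl-primed ones, by a narrow gap, but this difference of −0.31 on the log2 scale (SE 0.11, adjusted p = 0.105) did not pass. The ratio of heavy to light chain TPM was 2.81 ± 0.361 in Tu-primed, 2.01 ± 0.133 in Spl-primed and 2.10 ± 0.0453 in parental libraries (SD, n = 4), given as a description. A 333-base Fth1 transcript with 10.2% of Fth1 reads held 3269 to 4051 TPM. The ratio, the Fth1 TPM and its mean length therefore rest in part on this short transcript. The 929-base Fth1 transcript had 3443 to 4311 TPM in Tu-primed, 3214 to 3770 in Spl-primed and 3966 to 4604 in parental libraries. The leading Ftl1 transcript had 2678 to 3139, 3154 to 3793 and 3655 to 4065 TPM. Short transcripts were lower after priming in general: genes with a mean effective length below 1000 bases had a median log2 difference of −0.17 in Tu-primed and −0.13 in Spl-primed against parental cells, and those of 4000 bases or more 0.05 and 0.00. Fth1 (392 bases) and Ftl1 (718 bases) are in the first class, and the part of length in their change was not tested. Estimates could also split reads between the ferritins and their copies, of which Ftl1-ps1, with at most 354 counts in a library, was the most counted.

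Slc40a1, the iron exporter, was close to the limit of detection, with 25 to 46 counts in Tu-primed, 18 to 42 in Spl-primed and 5 to 16 in parental libraries, and it passed the filter only through the primed libraries. Its CPM was 1.63, 1.01, 0.874 and 0.937 in Tu-primed, 0.565, 1.27, 0.654 and 1.46 in Spl-primed and 0.236, 0.659, 0.503 and 0.200 in parental libraries. The Tu-primed libraries were all above the parental ones and the Spl-primed libraries overlapped both. The fitted log2 differences from parental cells were 1.49 (SE 0.42, adjusted p = 0.00714) in Tu-primed and 1.31 (SE 0.42, adjusted p = 0.0192) in Spl-primed cells. A gene admitted through the groups in which it is high had to differ in this direction, so both are given as a description. Between the primed groups the difference was 0.18 (adjusted p = 0.823). The Spl-primed call was lost without Spl-primed replicate 2 (adjusted p = 0.0562) or 4 (0.0711) or parental replicate 1 (0.0615) or 4 (0.0577), with transcript lengths in the fit (0.058) and in the authors' normalised table (0.0538), and relative to the median gene by TPM the Spl-primed difference was 0.75.

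Ireb2, which encodes an iron regulatory protein, was at 195, 190.0, 207 and 183 CPM in Tu-primed, 195, 183, 150.4 and 186 in Spl-primed and 146, 151, 114 and 104 in parental libraries. All Tu-primed libraries were above all parental ones, and Spl-primed replicate 3 was just below the highest parental library. Ireb2 rose by 0.59 on the log2 scale (SE 0.11, adjusted p = 0.000480) in Tu-primed and by 0.47 on the log2 scale (SE 0.11, adjusted p = 0.00340) in Spl-primed cells, and differed by 0.12 (adjusted p = 0.580) between the primed groups. Ireb2 and Ftl1 ran in opposite directions over the 12 libraries (Pearson's r of log2 CPM = −0.97), a description over libraries that share 3 group means.

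**Figure D3:**
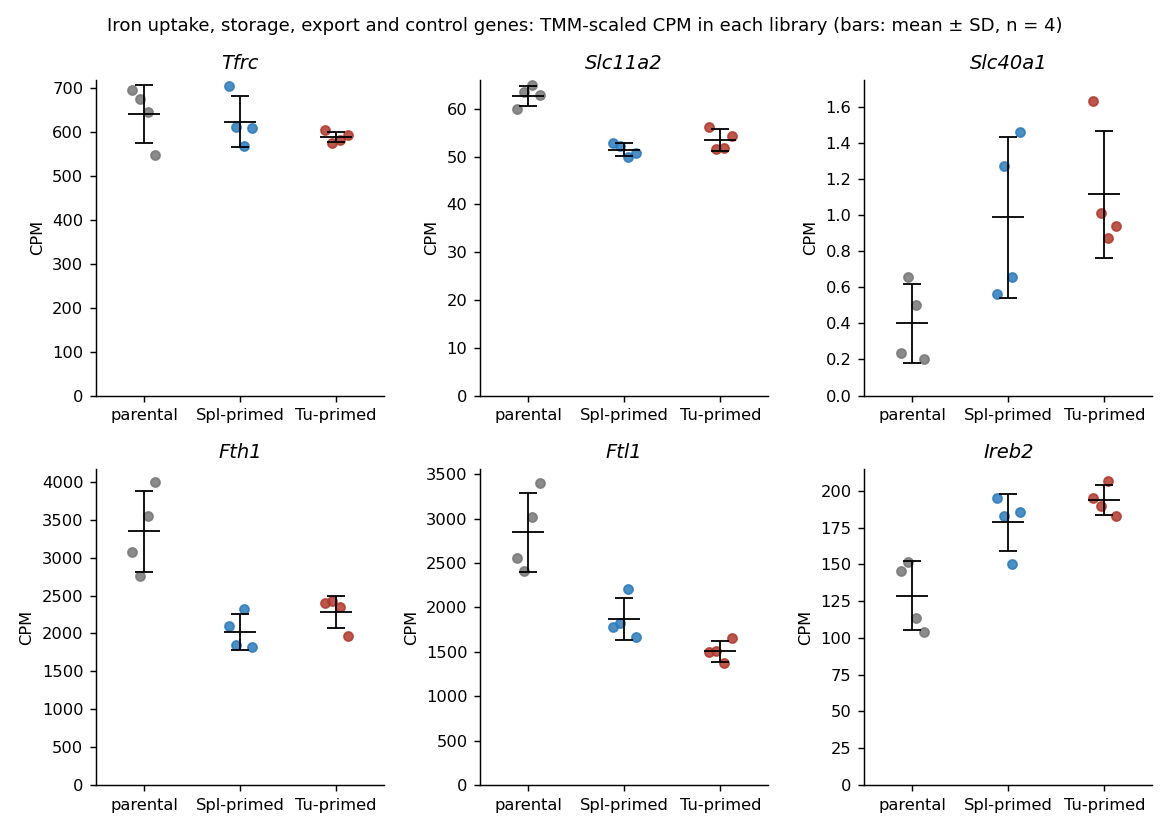
TMM-scaled CPM (y axis) of the 6 iron uptake, storage, export and control genes in each library (points) by group (x axis), with mean ± SD of 4 libraries. The parental libraries lie above the primed ones for Slc11a2, Fth1 and Ftl1, and all 3 groups overlap for Tfrc.

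Per length, the order of the members was led by ferritin in every group. Fth1 had 8033 ± 563 TPM in Tu-primed, 6853 ± 353 in Spl-primed and 8183 ± 321 in parental libraries (SD, n = 4), followed by Ftl1 with 2875 ± 198, 3414 ± 300.5 and 3899 ± 182 TPM. The Fth1 values include the 333-base transcript named above. In Spl-primed replicates 2 and 3 the 929-base Fth1 transcript, at 3214 and 3770 TPM, was below the leading Ftl1 transcript, at 3405 and 3793. In the other libraries it was above. Tfrc, Steap2 and Steap1 came next, in this order in all 3 groups, each above the next in every library. In Tu-primed libraries the levels were 183 ± 8.71 TPM for Tfrc, 134 ± 14.8 for Steap2 and 81.1 ± 6.72 for Steap1, then 48.8 ± 4.06 for Ireb2 and 46.6 ± 9.01 for Slc11a2, whose libraries overlapped in both primed groups. Steap4 changed its place. With 1.80 ± 0.587 TPM it was below Steap3 (5.30 ± 0.712) in every parental library, overlapped it in Spl-primed libraries (4.46 ± 1.06 against 3.69 ± 0.417), and was above it in every Tu-primed library (22.8 ± 4.01 against 3.88 ± 0.401). The ratio of Steap4 to Steap1 TPM, within libraries, was 0.280 ± 0.0300 in Tu-primed, 0.0774 ± 0.0213 in Spl-primed and 0.0358 ± 0.0115 in parental libraries. Slc40a1 was last throughout, with 0.711 ± 0.422 TPM in Tu-primed libraries.

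Most reads of each member were on coding transcripts. For the 6 members with both kinds of transcript and at least 100 reads in every library, the share on transcripts annotated as retained introns or otherwise non-coding was compared by an exact permutation test (two-sided, 4 against 4 libraries), whose smallest p is 0.0286, and p-values were adjusted over 18 tests. The Fth1 share was 1.33, 1.46, 1.53 and 1.04% in Tu-primed, 0.769, 1.03, 1.33 and 1.20% in Spl-primed and 0.108, 0.361, 0.206 and 0.0833% in parental libraries. All primed libraries were above all parental ones. The same held for Ireb2 (1.39% ± 0.138, 1.07% ± 0.246 and 0.250% ± 0.148, SD, n = 4), Steap2 (1.63% ± 0.223, 1.01% ± 0.481 and 0.247% ± 0.0470) and Ftl1 (0.397% ± 0.0453, 0.520% ± 0.0999 and 0.198% ± 0.0429). Each of these, and Tfrc, reached the smallest exact permutation p of 0.0286 in both comparisons with parental cells, which the adjustment left at 0.0514, so that none passed. With this smallest p and 18 tests, complete separation of both primed groups from the parental cells for these members alone could not pass. Not passing is therefore no sign of equal shares. Over all coding genes the share was 8.0 to 8.24% in Tu-primed, 7.77 to 8.70% in Spl-primed and 6.13 to 6.55% in parental libraries, which moved in the same direction. Between the primed groups all 6 members overlapped, and no adjusted p was below 0.0935. The share of Slc11a2 overlapped in all 3 groups.

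The Tfrc share was set apart by a single library. It was 0.913, 0.454, 1.68 and 1.02% in Tu-primed, 0.643, 0.777, 20.0 and 0.569% in Spl-primed and 0.00546, 0.0296, 0 and 0.0200% in parental libraries. In Spl-primed replicate 3 the retained-intron transcript Tfrc-204, which carries all 4 iron-responsive elements, was estimated at 3119 reads, against 47.3 to 255 in the other primed libraries and 0 in the parental ones. Tfrc counts summed over transcripts did not stand apart in that library.

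Slc11a2 is known to make mRNAs with and without the 3′ element, and only Slc11a2-205 carried the site shown above. It held 67.5, 68.0, 68.2 and 64.2% of Slc11a2 reads in Tu-primed, 63.5, 63.9, 67.8 and 68.5% in Spl-primed and 69.8, 67.9, 70.1 and 69.7% in parental libraries. The groups overlapped, and the differences of 1.06, −2.39 and −3.44 percentage points in the 3 comparisons had exact permutation p-values of 0.543, 0.0857 and 0.0571 (adjusted over 3 tests: 0.543, 0.129 and 0.129).

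**Figure D4:**
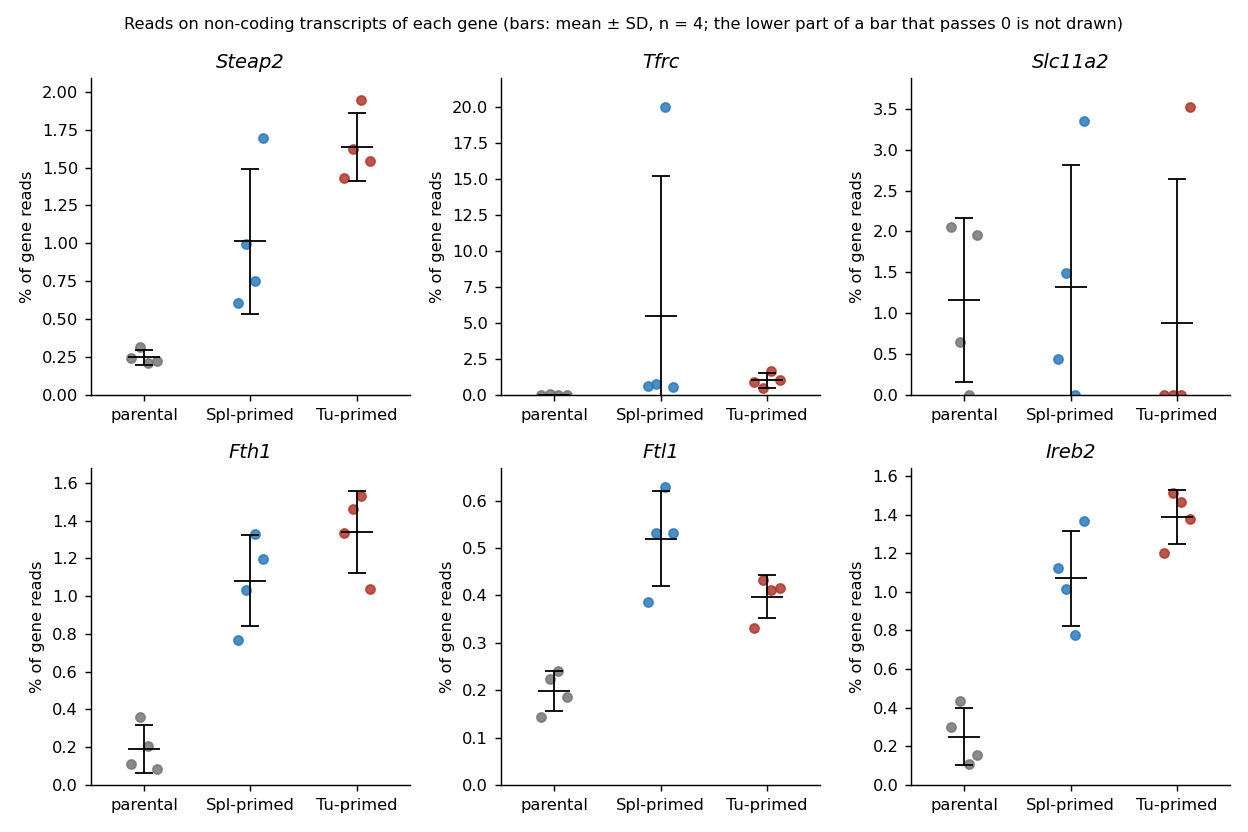
Percent of each gene's reads on non-coding transcripts (y axis) in each library (points) by group (x axis), with mean ± SD of 4 libraries. The primed libraries lie above the parental ones for Steap2, Tfrc, Fth1, Ftl1 and Ireb2, and Spl-primed replicate 3 stands at 20.0% for Tfrc.

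Of 75 other iron, heme, iron-sulfur and copper genes 67 were tested. Between Tu-primed and Spl-primed cells 6 rose (8.96%) and 1 fell (1.49%), beside the 4.66% and 2.97% of all genes, and the median log2 difference was −0.05. This list too was chosen with earlier results known, so its counts beside all genes are a description. Those that rose included secreted iron binders and a transporter. Lcn2, the siderophore binder lipocalin 2, was at 1010.3, 1075, 1069 and 824 CPM in Tu-primed, 429, 457, 462 and 519.6 in Spl-primed and 533, 508, 633 and 758 in parental libraries and rose by 1.09 on the log2 scale (SE 0.12, adjusted p = 6.81e-05) between the primed groups. Cp, the ferroxidase ceruloplasmin that works with ferroportin, rose by 0.57 on the log2 scale (SE 0.08, adjusted p = 0.000601). Ltf, lactoferrin, rose by 1.16 on the log2 scale (SE 0.17, adjusted p = 0.000820) from a low level (1.86 ± 0.256 to 4.16 ± 0.878 CPM). Lcn2 and Ltf are also proteins of neutrophil granules. Of the granulocyte markers S100a8 rose by 0.93 on the log2 scale (SE 0.24, adjusted p = 0.0270) with overlapping libraries, at 2.91, 3.84, 2.94 and 1.63 CPM in Tu-primed and 1.32, 1.38, 1.96 and 1.29 in Spl-primed libraries, while Retnlg, Camp, Ngp, Mpo and Elane stayed at 0 in all 12 libraries. Slc39a14, a carrier of non-transferrin iron, rose by 0.47 on the log2 scale (SE 0.09, adjusted p = 0.00474), and Fbxl5, the iron-sensing subunit of the ligase that degrades the Ireb2 protein, by 0.31 on the log2 scale (SE 0.07, adjusted p = 0.0187). The copper carrier gene Slc31a2 was the gene that fell, with −0.37 on the log2 scale (SE 0.08, adjusted p = 0.0106). Hmox1, the inducible heme oxygenase, was the remaining one that rose, with 0.27 on the log2 scale (SE 0.07, adjusted p = 0.0295), and is named because the count is small. Of these 7 calls, those of Lcn2, Cp and Slc39a14 were kept under every alternative. The other 4 were lost both with transcript lengths in the fit and in the authors' normalised table, at adjusted p-values of 0.118 and 0.106 for Ltf, 0.131 and 0.113 for Fbxl5, 0.115 and 0.107 for Slc31a2 and 0.119 and 0.0976 for Hmox1. Fbxl5 was also lost without Tu-primed replicate 2 (0.0557) or 3 (0.0767). Hmox1 was lost with the replicate block (0.0573) and without Tu-primed replicate 1 (0.108), 2 (0.0756) or 3 (0.0526) or Spl-primed replicate 1 (0.0703), 2 (0.0899) or 4 (0.0607). Of the 27 mitochondrial iron and iron-sulfur genes, 0 passed in edgeR, DESeq2 or limma-voom, with 5 at an unadjusted p under 0.05.

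Against parental cells, 18 of the 67 genes rose and 24 fell after tumor-derived priming, and 14 rose and 18 fell after spleen-derived priming. Cybrd1 (8 to 15 counts in parental libraries), Atp7b (1 to 9) and Slc22a17 (7 to 15) met the filter on low counts through the primed libraries. Genes admitted in this way had to differ in this direction, so their part in the counts of rises is only a description. These are 26.9% and 35.8%, then 20.9% and 26.9%, beside 31.2% and 28.0%, then 25.7% and 22.5%, of all genes. The median log2 differences were −0.10 and −0.03. The same carrier of mitochondrial iron led both comparisons: Slc25a37, mitoferrin 1, was at 107, 107, 106 and 99.7 CPM in Tu-primed, 97.2, 104, 102 and 109 in Spl-primed and 44.9, 54.9, 38.3 and 36.8 in parental libraries, and rose by 1.27 (adjusted p = 3.95e-07) and 1.24 (adjusted p = 8.88e-07) on the log2 scale. Ppox, an enzyme of heme synthesis, rose by 1.10 (adjusted p = 2.88e-06) and 1.01 (adjusted p = 1.28e-05), and Isca2, an assembly factor of mitochondrial iron-sulfur clusters, by 0.82 (adjusted p = 6.50e-06) and 0.77 (adjusted p = 2.38e-05). These values rest in part on non-coding transcripts. With coding transcripts alone the differences were 0.18 (adjusted p = 0.681) and 0.51 (adjusted p = 0.236) for Slc25a37 and 0.22 (adjusted p = 0.145) and 0.07 (adjusted p = 0.662) for Ppox, which did not pass, and 0.47 and 0.35 for Isca2, which passed. In Tu-primed cells Fbxl5 rose by 0.76 (adjusted p = 2.60e-06) and Slc39a14 by 0.88 (adjusted p = 3.21e-06). In Spl-primed cells Slc31a2 rose by 0.68 (adjusted p = 2.51e-05) and Mcoln1, which encodes a lysosomal cation channel, by 0.53 (adjusted p = 4.64e-05), or by 0.26 with coding transcripts alone. Fbxl5, Slc39a14, Slc31a2 and Mcoln1 all had higher means in both primed groups than in parental libraries. In Tu-primed, Spl-primed and parental libraries Fbxl5 had means of 124, 99.8 and 73.2 CPM and Slc39a14 163, 118 and 88.4. Those of Slc31a2 were 16.7, 21.6 and 13.5 CPM and those of Mcoln1 30.0, 29.6 and 20.5.

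The genes that fell against parental cells with the smallest p included partners of storage and control. Pcbp1, an iron chaperone that delivers iron to ferritin, fell by 0.52 (adjusted p = 1.81e-05) in Tu-primed and by 0.34 (adjusted p = 0.000883) in Spl-primed cells on the log2 scale. Aco1, which encodes the other iron regulatory protein, fell by 0.39 (adjusted p = 3.28e-05) and 0.27 (adjusted p = 0.00100), where Ireb2 rose. Slc48a1, a heme transporter, fell by 0.60 (adjusted p = 2.26e-05) and 0.42 (adjusted p = 0.000683). In Tu-primed cells Glrx5, a glutaredoxin of cluster assembly, fell by 0.84 (adjusted p = 2.62e-05) and Alad, an enzyme of heme synthesis, by 0.72 (adjusted p = 4.06e-05). In Spl-primed cells Scara5, a ferritin receptor, fell by 0.52 (adjusted p = 8.96e-05) and Hmox2, the constitutive heme oxygenase, by 0.38 (adjusted p = 0.000780). Naming Glrx5, Alad, Scara5 and Hmox2 in 1 comparison follows from the naming rule, and all had lower means in both primed groups. In Tu-primed, Spl-primed and parental libraries Glrx5 had means of 31.3, 38.6 and 56.0 CPM and Alad 34.3, 41.7 and 56.4. Those of Scara5 were 11.9, 11.5 and 16.5 CPM and those of Hmox2 32.4, 32.8 and 42.7.

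**Figure D5:**
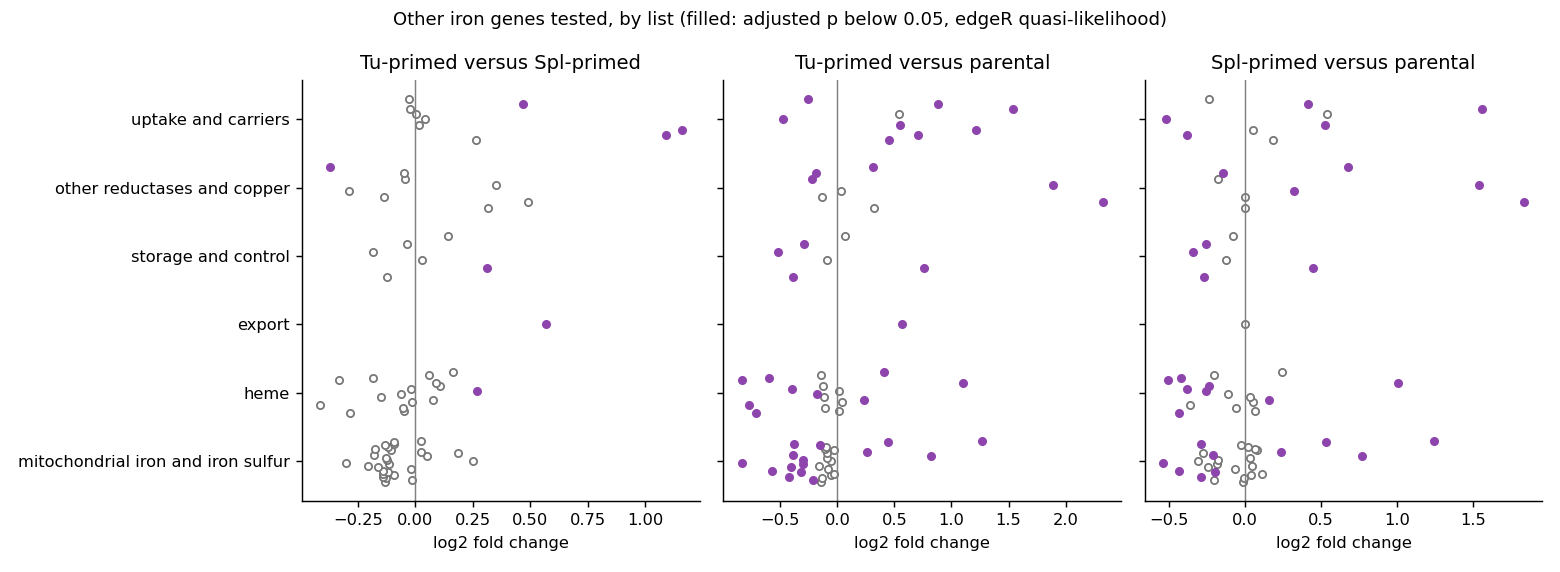
Log2 fold change (x axis, a separate scale in each panel) of the 67 other iron genes tested, 1 point a gene, by list (y axis), in the 3 comparisons from edgeR. Filled points passed an adjusted p of 0.05, which 7, 42 and 32 genes did from left to right.

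The genes whose log2 CPM ran most like each member over the 12 libraries are given as a description, since all share the 3 group means. For Steap4 they were Stat3 (Pearson's r = 0.994), Prss12 (0.988) and Has2 (0.988), and for Steap2 they were Cp (0.986), Vwa5a (0.986) and Cast (0.985). Steap2 and Steap4 had r = 0.95 with each other, and Steap4 and Steap3 −0.67. Steap1 was followed most closely by Sod2 (0.944), Trex1 (0.933) and Tnfrsf1a (0.932), and Steap3 by Psmf1 (0.960), Gata3 (0.953) and Lpar2 (0.950). Tfrc ran with Vkorc1l1 (0.933), Polr2b (0.922) and Ppip5k2 (0.916), and Slc11a2 with Tatdn2 (0.964), Pcyt1a (0.960) and Klf13 (0.954). The nearest to Slc40a1 were Tspyl4 (0.962), Zhx2 (0.939) and Bcl11a (0.920), at the low counts given above. Fth1 ran with Psma6 (0.986), Tomm20 (0.976) and Dnajb6 (0.976), Ftl1 with Mdh2, Ap2m1 (each 0.998) and Rpl8 (0.997), and Ireb2 with Bbx (0.995), Gtf3c3 (0.995) and Rc3h2 (0.993).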

How the data were processed

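RNA from 12 samples of 4T1 cells was sequenced from TruSeq Stranded RNA libraries. Per the submitters' processing notes the reads passed FastQC, Trimmomatic 0.39 and Salmon 1.4.0 with GRCm38 (mm10); the annotation release and strand setting are not given in the sources used here. The deposited transcript tables hold estimated counts and TPM, and the authors' normalized table (a signal scaled between libraries) was used as an alternative. Transcripts were summed to genes with GENCODE M21 (116021 of 117081 listed transcripts; the rest held 0.326 to 0.419% of reads) and rounded. edgeR 4.0.16 (filterByExpr, TMM, glmQLFit and glmQLFTest, all 12 libraries in 1 fit, no replicate block) gave log2 fold changes, with p-values adjusted by Benjamini-Hochberg over 12555 genes and a threshold of 0.05. SE was the fold change over the root of F. The alternatives used DESeq2 1.42.0 and limma 3.58.1, other scalings and filters, transcript lengths, coding transcripts only, and each library left out. The fitting code was tested on simulated data.

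Members and lists were chosen with earlier results of these data known. Of the other iron genes, up to 5 a direction and comparison were named, those with the smallest p among called genes whose libraries do not overlap. For each member the 3 genes with the highest Pearson's r over 12 libraries were named. The search that allowed 1 unpaired base, and the comparison by TPM, were added after seeing the data. Sequences came from GENCODE M21 and RefSeq (GRCm38.p6). Depth differed little between libraries, and no 2 libraries of a group agreed within sampling noise. By chi-square per degree of freedom over genes, Spl-primed replicate 3 stood at 30.4 to 37.7 from its group, whose others were 3.43 to 7.37 apart. It was the lowest of its group for Steap2, Steap4 and Ireb2 and the highest for Fth1 and Ftl1. Parental replicate 4 stood at 55.6 and 61.7 from parental replicates 1 and 2.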

Additional observations from a re-analysis of the deposited data

Results flagged for a closer look

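Within the 30 groups of 4 libraries of the members' levels and the 21 of their transcript shares, 4 groups held a library far from the other 3 by Dixon's test at the 95% level, and chance flags about 1 group in 20. Fth1 was lowest in Tu-primed replicate 4, at 1965 CPM against 2347 to 2424 in the other 3 libraries. The share of Tfrc reads on non-coding transcripts was 20.0% in Spl-primed replicate 3 and 0.569 to 0.777% in the others of that group. In Tu-primed replicate 4 the share of Slc11a2 reads on non-coding transcripts was 3.52%, where the other 3 libraries were at 0, and the share on the transcript with the iron-responsive element was 64.2% against 67.5 to 68.2%. These last values are shares of the same reads and are not independent. Where the other 3 libraries are at 0, any value above 0 is flagged, so the chance rate given above does not apply to the Slc11a2 non-coding share.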

How the results depend on the processing

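The 3 members called between Tu-primed and Spl-primed cells were also 3 in number under each of the 23 alternatives, with no lost call. Of the 687 fold changes refitted under alternatives, 643 kept their direction and their side of the threshold, 27 lost their call, 1 gained it (Tfrc, given above) and 16 changed sign, all of 4 differences that passed in no fit. Steap2 in Spl-primed against parental cells went to −0.013 with transcript lengths and −0.053 in the authors' normalized table. Steap3 between the primed groups went to 0.0065 (RLE), 0.014 (no filter), 0.0017 (at least 10 counts), 0.0071 (DESeq2), 0.0066 (limma-voom), 0.011 (only the libraries compared), 0.0057 (transcript lengths) and 0.016 (authors' table). With each library left out it ran from −0.064 to 0.073, Slc40a1 between the primed groups from −0.067 to 0.43, and Tfrc in Spl-primed against parental cells from −0.11 to 0.0015. None of the shares on non-coding transcripts passed, under the limit of this test given above. Those that changed sign ran, in percentage points, from −6.14 to 0.355 for Tfrc between the primed groups, and for Slc11a2 from −1.32 to 0.238 between the primed groups, −1.16 to 0.012 for Tu-primed and −0.522 to 0.597 for Spl-primed against parental cells. By TPM the share of Slc11a2 with the iron-responsive element was −0.814 points between the primed groups. The lost calls concerned Steap1, Slc11a2 and Slc40a1 against parental cells. With transcript lengths in the fit, members called between Spl-primed and parental cells went from 8 to 5, and other iron genes called between the primed groups from 7 to 3, as they did in the authors' normalized table (3). Leaving out each library in turn gave 8 to 10 members for Tu-primed and 6 to 8 for Spl-primed against parental cells, and 5 to 10, 36 to 44 and 27 to 41 other iron genes in the 3 comparisons. The replicate numbers did not pair the libraries: 2 of 12 same-numbered pairs had a correlation of deviations over 0.1 (range −0.16 to 0.15) and 3 libraries correlated best with their own number. With the replicate block 3, 9 and 8 members and 6, 40 and 30 other iron genes were called. On the TPM scale, relative to the median gene, 28 of 30 member differences moved by less than 1 SD, 2 moved further and 0 called values changed direction. Slc40a1 could not be fitted with at least 10 counts in every library. Depth limits Slc40a1 (5 to 46 counts) most.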
